A study of Sus scrofa with 3 samples.

Results

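The major histocompatibility complex (MHC) class I molecules of the pig and the genes that load them with peptide were described in cells exposed to enterotoxigenic Escherichia coli material, with or without earlier contact with lactobacilli. The 10 genes were the swine leukocyte antigens SLA-1, SLA-2, SLA-3 and SLA-5, the light chain B2M, the peptide transporter subunits TAP1 and TAP2, the chaperones TAPBP and CALR, and the regulator NLRC5. They were chosen by name, with earlier results of these data known. The shares over all genes given below are therefore a scale for the counts, not a test of them. Every non-control probe whose gene name was one of the 10, or whose description on the array named it, was taken. These were 32 probes for 9 genes, out of 43603 probes on the array and 7037 genes with a symbol. SLA-3 had 8 probes, B2M 10, TAP2 4, SLA-1 3, SLA-5 and TAP1 2 each, and SLA-2, CALR and NLRC5 1 each. No probe was found by this rule for TAPBP (tapasin, which bridges empty class I molecules to the transporter), so it was not analysed here. The SLA-2 probe and 3 of the B2M probes were found through the description.

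Classical class I heavy chains span the membrane and pair with B2M, and the complex is stable only when it holds a peptide. Such peptides are cut from cytosolic proteins by the proteasome, pumped into the endoplasmic reticulum by the TAP1 and TAP2 dimer, and fitted into the groove with the help of CALR and tapasin before the complex moves to the cell surface and is read by CD8 T cells. In many cell types interferons raise these genes together, partly through NLRC5, the transactivator of class I promoters. Gut epithelium carries class I molecules on its surface throughout life.

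RNA came from PIE cells, a non-transformed line started from the gut epithelium of a newborn piglet that had not yet suckled. After 3 days of culture, 1 culture received Lactobacillus jensenii TL2937 for 48 h (group TL2937+ETEC), 1 received Lactobacillus plantarum TL2766 for 48 h (TL2766+ETEC) and 1 received control medium (ETEC). Bacteria were washed off, and all 3 cultures were then given ETEC PAMPs, the pathogen-associated molecular patterns of enterotoxigenic E. coli, for 12 h. The lactobacillus strains were compared for how each altered the response of the cells to these patterns. Every group thus carried the challenge, the unchallenged cells of the design were not analysed here, and the line comes from 1 animal.

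Each group had 1 array and no replicate, so no test was made and no p-value, standard error or call of significance is given. Intensities are scaled to a common 75th percentile, and those of a gene are given in the order ETEC alone, TL2937+ETEC, TL2766+ETEC. A difference is the log2 value of one array minus that of another, after each array was centred on its 75th percentile. Both lactobacillus comparisons used the same ETEC array. All 3 arrays lay on 1 slide, so group, culture and array position cannot be told apart. The 75th percentile of processed intensity was 461 to 505, and 60.9% to 62.5% of spots were well above background. On 27 probes that were spotted repeatedly, the median standard deviation of a log2 difference between spots was 0.13 (TL2937+ETEC and ETEC), 0.16 (TL2766+ETEC and ETEC) and 0.20 (both lactobacillus arrays). On the 8 brightest of them it was 0.11, 0.10 and 0.10, with a maximum of 0.26. These values cover spot noise on 1 array each, not variation between cultures. Each of the 32 probes had 1 spot.

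The epithelial label of the line was set against marker genes. Of 8 epithelial markers, 5 were on the array. KRT8 (a simple-epithelium keratin) gave a scaled intensity of 19.8, 18.0 and 23.9 with ETEC alone, TL2937 and TL2766, and CDH1 (E-cadherin) was well above background on the first and second of these arrays alone. KRT18, EPCAM (18 probes) and CLDN4 were not well above background by their representing probe on any array. The endothelial markers PECAM1 and CDH5 were bright, at 86641, 84073 and 85385 for PECAM1 and 60337, 56613 and 55889 for CDH5. All 4 PECAM1 probes and both CDH5 probes were well above background on every array. Of the other endothelial markers, KDR lay at 532, 798 and 753, and VWF was dim at 22.7, 15.5 and 13.8 and not well above background on the TL2766+ETEC array. Among leukocyte markers CD14 lay at 622, 723 and 741 and CD74 at 128, 119 and 126, well above background on every array. PTPRC was not well above background on any array. CD3E passed the flag on the ETEC and TL2937+ETEC arrays only, and LYZ on the TL2766+ETEC array only. The mesenchymal markers COL1A2 (41.8, 32.1 and 28.5) and DCN (59.1, 55.7 and 57.1) were dim but well above background on every array. Levels of different probes cannot be set against each other, so the summed scaled intensity of a list is given only for its range over the 3 arrays. It was 60.0 to 68.1 for the epithelial list, 778 to 892 for the leukocyte list, 85.6 to 101 for the mesenchymal list and 141499 to 147532 for the endothelial list, the last carried almost wholly by PECAM1 and CDH5. Of the 5 epithelial markers on the array, 3 were thus not detected by their representing probe (2 of the 18 EPCAM probes passed the flag on at least 1 array), and the cells are called PIE cells throughout. The part of cell makeup in the results below was not tested. In bulk RNA, fewer cells that express a gene and less RNA per cell cannot be told apart.

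Class I genes resemble each other closely, so what each probe can read bears on every value below. Every pair of heavy chain probes was aligned at its best ungapped overlap of at least 30 bases. Pairs from different genes with at least 80% identity are given, so they were picked by likeness. The SLA-1 probe at base 604 of NM_001097431 and the SLA-3 probe at base 655 of NM_001097427 shared 59 bases, of which 55 were identical (93.2%). The SLA-1 probe at base 1057 and the SLA-5 probe at base 1026 of NM_001114056, shared 60 bases with 52 identical (86.7%). The SLA-2 probe at base 252 of its GenBank target and the SLA-5 probe at base 265 shared 34 bases with 28 identical (82.4%). These 3 pairs are shown 5′ to 3′ as printed on the array, with bases that differ between the members of a pair in capitals.
SLA-1, base 604: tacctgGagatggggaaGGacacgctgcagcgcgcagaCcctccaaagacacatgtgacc
SLA-3, base 655: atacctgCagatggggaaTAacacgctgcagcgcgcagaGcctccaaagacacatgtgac
SLA-1, base 1057: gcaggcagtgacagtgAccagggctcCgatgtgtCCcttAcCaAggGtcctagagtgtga
SLA-5, base 1026: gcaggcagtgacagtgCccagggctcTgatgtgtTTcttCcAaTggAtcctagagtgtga
SLA-2, base 252: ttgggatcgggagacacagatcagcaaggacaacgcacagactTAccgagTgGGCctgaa
SLA-5, base 265: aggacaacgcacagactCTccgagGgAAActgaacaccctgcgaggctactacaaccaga

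The array's own annotation lists more than 1 class I gene for 5 of the 14 heavy chain probes. The SLA-3 probe at base 816 lists the transcripts of SLA-1, SLA-2 and SLA-5 as well. The SLA-1 probe at base 604 also lists SLA-2 and SLA-5, the SLA-1 probe at base 1057 and the SLA-3 probe at base 655 list SLA-2, and the SLA-3 probe at base 1248 lists SLA-1. These 5 probes had differences of -0.40 to -0.35 between TL2937+ETEC and ETEC, and the 9 probes that list no other class I gene had -0.48 to -0.24. Their medians were -0.38 and -0.41. A value printed for 1 heavy chain gene may thus hold signal of another, and the heavy chain probes are best read as a group. The probe that lists all 4 genes is shown as the example of a shared stretch.
SLA-3, base 816: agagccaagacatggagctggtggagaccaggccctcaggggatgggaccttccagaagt

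In PIE cells kept with L. jensenii TL2937 before the challenge, 8 of the 9 measured genes gave a lower signal than in cells given the challenge alone, where 58.8% of all genes did. The differences of these 8 ran from -0.46 (SLA-3) to -0.24 (SLA-1), and NLRC5 gave 0.00031. All 4 heavy chains, the light chain and both transporter subunits moved on a narrow scale, between 1.18-fold and 1.37-fold. Among genes at least 16-fold above the 75th percentile, 71.1% were below ETEC with TL2937 and 53.5% with TL2766. Of the 9 genes, 5 were that bright. In cells kept with L. plantarum TL2766, 8 of 9 genes were also below the ETEC array, where 49.4% of all genes were. These 8 lay between -0.18 (TAP2) and -0.077 (SLA-2), and NLRC5 was above the ETEC array by 0.17. Differences of this size are about as large as spot noise in this comparison (median 0.16, and 0.10 on bright probes). The ETEC array was highest, the TL2766+ETEC array intermediate and the TL2937+ETEC array lowest for 8 of 9 genes and for 30 of 32 probes.

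Against the whole array, the median of the 9 genes was -0.38 for TL2937+ETEC minus ETEC, where that of all 5157 genes detected on both arrays (well above background) was -0.038. For TL2766+ETEC minus ETEC the medians were -0.15 for the 9 genes and 0.0024 for 5132 genes. For TL2937+ETEC minus TL2766+ETEC they were -0.25 and -0.041, the latter over 5173 genes. The order ETEC above TL2766+ETEC above TL2937+ETEC was seen in 28.6% of 5100 genes and 23.5% of 25376 probes, which is the background for the 8 of 9 genes and 30 of 32 probes.

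Counts past a fold were read in the same way. A fold of 1.2 was taken for a small difference and 2 for a large one. In TL2937+ETEC minus ETEC, 6 of 9 genes were at least 1.2-fold lower, where 12.6% of all genes were, and 0 were at least 1.2-fold higher, where 7.68% were. In that comparison 27 of the 32 probes were at least 1.2-fold lower, against 12.2% of all probes. In TL2766+ETEC minus ETEC, 0 of 9 genes were at least 1.2-fold lower (background 9%) and 0 higher (8.32%), and 0 of 32 probes were lower (10.5%). Between the lactobacillus arrays, 3 of 9 genes were lower with TL2937 (background 7.48%), 0 were higher (4.41%), and 11 of 32 probes were lower (7.37%). No gene differed 2-fold in any comparison, where 0.485%, 0.643% and 0.309% of all genes did in TL2937+ETEC minus ETEC, TL2766+ETEC minus ETEC and the direct comparison. The count of 6 rests on the 1.2-fold limit and was 0 at 1.5-fold.

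**Figure D1:**
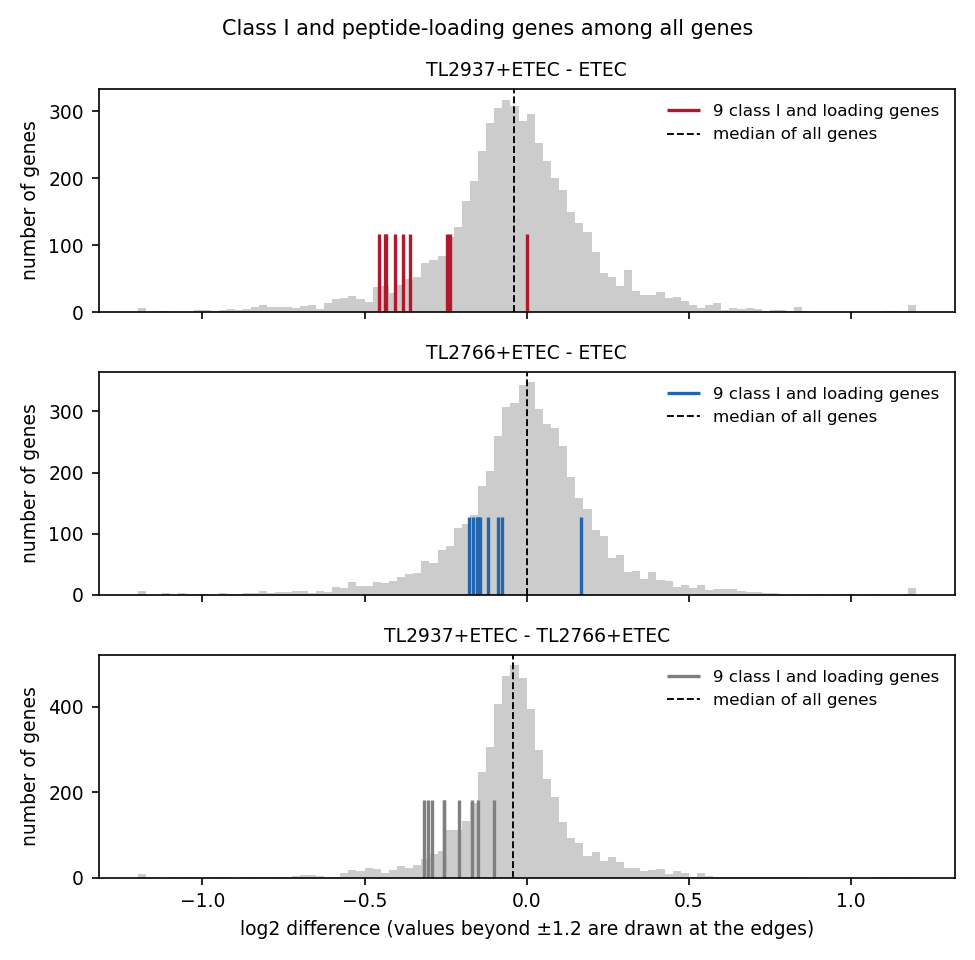
Distribution of the log2 difference over all genes well above background (grey bars, number of genes; values beyond 1.2 either way are drawn at the edges) in the 3 comparisons, with the 9 class I and loading genes as coloured lines and the median of all genes dashed. Against ETEC, 8 of the 9 lines lie left of 0 in both upper panels, further left for TL2937+ETEC (median -0.38) than for TL2766+ETEC (median -0.15).

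Heavy chains come first among the genes. SLA-1, SLA-2 and SLA-3 are the classical class I molecules of the pig, which show peptide to T cells. SLA-3 had the largest difference for TL2937+ETEC minus ETEC when each gene was read by its brightest probe. With the mean of all probes it was -0.39, behind TAP1 (-0.45) and SLA-5 (-0.44). It gave 93970 with ETEC alone, 68480 with TL2937 and 83780 with TL2766 by its brightest probe. The ETEC array was highest and the TL2937+ETEC array lowest, 1.37-fold apart. Its 8 probes had a mean of -0.39 ± 0.061 (SD over 8 probes of the same arrays) for TL2937+ETEC minus ETEC and -0.12 ± 0.076 for TL2766+ETEC minus ETEC. All 8 lay below 0 in the first comparison, from -0.47 to -0.27. In the second 7 lay below 0, and the probe at base 565 gave 6908 with ETEC alone, 5715 with TL2937 and 6986 with TL2766.

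SLA-3 also shows how far probes of 1 transcript can differ. The probes at bases 1407 and 1425 share 42 identical bases. The first gave -0.47 and -0.23 against ETEC with TL2937 and TL2766, and the second gave -0.41 and -0.037. For TL2766 the difference between these overlapping probes was thus larger than the distance from 0 of any of the 9 genes, while for TL2937 it was small beside the differences themselves. A second overlapping pair, at bases 1550 and 1549 of 2 SLA-3 targets, had 55 of 57 shared bases identical and gave -0.46 and -0.41 for TL2937+ETEC minus ETEC.

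SLA-1 gave 195849, 166079 and 184360 with ETEC alone, TL2937 and TL2766 by its brightest probe, at base 1448. TL2937+ETEC was lowest, at -0.24 relative to ETEC, and TL2766+ETEC lay at -0.087. The other SLA-1 probes, shown above, gave 16349, 12392 and 15115 at base 604 and 58838, 45057 and 55747 at base 1057, or -0.40 and -0.38 for TL2937+ETEC minus ETEC. The smaller value of SLA-1 among the heavy chains was therefore that of 1 probe, and its other probes, which list further class I genes, were near those of SLA-3. After cyclic loess or quantile scaling, which remove a drift with brightness, the probe at base 1448 gave -0.15 and -0.14.

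SLA-2 was read by 1 probe, at 7599, 5839 and 7205, with differences from ETEC of -0.38 (TL2937) and -0.077 (TL2766). The second of these turned to 0.027 after normexp background correction. SLA-5, a heavy chain gene of the same cluster, gave 27595, 20844 and 24861 at base 1026, and 1113, 796 and 1030 at base 265. Both SLA-5 probes had the ETEC array highest and the TL2937+ETEC array lowest, with -0.40 and -0.48 for TL2937+ETEC minus ETEC. The value at base 265, -0.48, was the lowest of all 32 probes in that comparison.

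**Figure D2:**
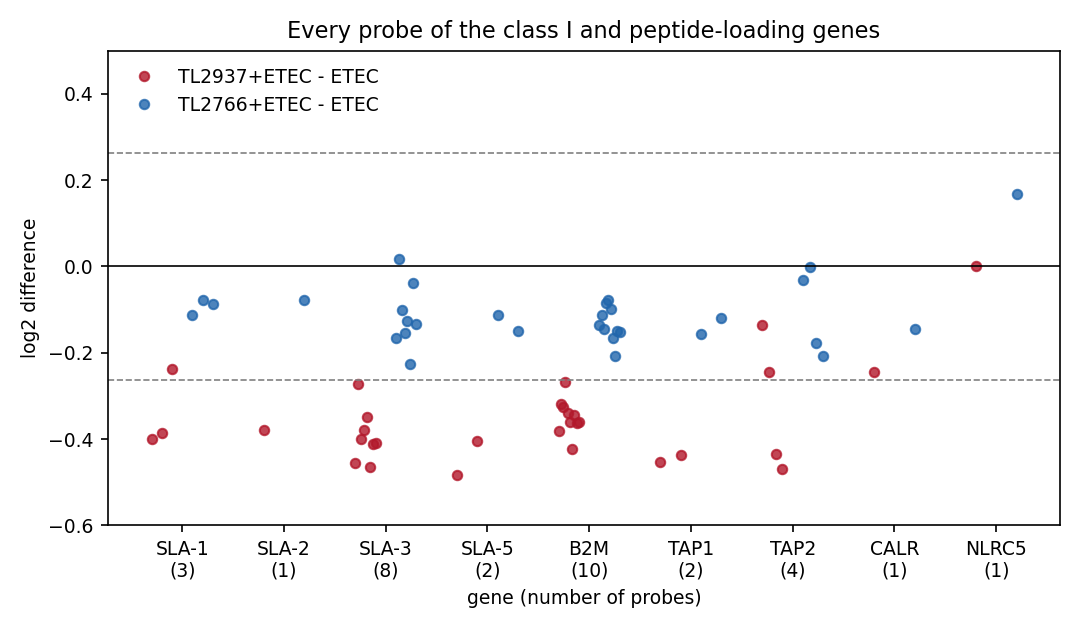
Log2 difference from the ETEC array (vertical axis) of each of the 32 probes, grouped by gene with the number of probes below its name; red, TL2937+ETEC, and blue, TL2766+ETEC. Dashed lines mark 1.2-fold; 27 red points and 0 blue points lie below the lower line, and the NLRC5 points lie at or above 0.

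B2M, the invariable light chain of all classical class I molecules, was read by 10 probes of 4 targets. At base 440 of NM_213978 it gave 178558 with ETEC alone, 139153 with TL2937 and 160728 with TL2766. All 10 probes had that same order of the arrays. Their mean difference was -0.35 ± 0.041 (SD over 10 probes) for TL2937+ETEC minus ETEC, within -0.42 to -0.27, and -0.13 ± 0.040 for TL2766+ETEC minus ETEC, within -0.21 to -0.077. Between the lactobacillus arrays the mean was -0.22 ± 0.042. The 10 probes read the same RNA of each group, so they are not replicates and their SD is not an error of the difference. For TL2766+ETEC the single probes are those to set beside spot noise in that comparison (median 0.16, and 0.10 on bright probes). Spot noise is not the error of a mean over 10 probes. The SD describes 1 RNA sample per group. The RefSeq table of the pig holds 2 entries named B2M, and which of them the probes read was not settled.

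TAP1 and TAP2 form the transporter that moves peptides into the endoplasmic reticulum. The TAP1 probe at base 1792 of NM_001044581 gave 2632, 1943 and 2422 with ETEC alone, TL2937 and TL2766, and the probe at base 477 gave 578, 422 and 519. Both placed ETEC highest and TL2937+ETEC lowest. They differed little from each other, at -0.44 and -0.45 for TL2937+ETEC minus ETEC and -0.12 and -0.16 for TL2766+ETEC minus ETEC. TAP1 had the largest gene-level difference between the lactobacillus arrays, -0.32, or 1.25-fold.

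TAP2 was the gene whose probes disagreed most for TL2937+ETEC minus ETEC. The probes to the curated transcript NM_001206441 gave 932, 849 and 912 at base 834, and 884, 747 and 883 at base 1457. Those to the predicted transcript XM_003128325 gave 16039, 11874 and 14180 at base 2432, and 2340, 1689 and 2027 at base 2783. All 4 had the TL2937+ETEC array lowest, but the differences from ETEC were -0.13 and -0.24 for the curated transcript and -0.43 and -0.47 for the predicted one. For TL2766+ETEC they were -0.030 and -0.0013 against -0.18 and -0.21. The gene-level value of -0.43 comes from the brightest probe, which reads the predicted transcript, and was -0.13 when only probes of curated RefSeq mRNAs were allowed, an alternative chosen after seeing the data. XM_003128325 was not found in the RefSeq table used, so it was not settled that these probes read TAP2. The probes to the curated transcript are shown because the TAP2 value depends on which target is believed.
TAP2, base 834: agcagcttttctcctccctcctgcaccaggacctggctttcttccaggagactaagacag
TAP2, base 1457: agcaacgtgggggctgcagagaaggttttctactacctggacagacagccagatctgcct

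CALR (calreticulin), a lectin chaperone of the endoplasmic reticulum that holds new class I molecules among many other glycoproteins, was read by 1 probe at base 944 of NM_001174133. It gave 7460, 6293 and 6746 with ETEC alone, TL2937 and TL2766. The ETEC array was highest, and the lactobacillus arrays lay at -0.25 and -0.15. The direct difference between the lactobacillus arrays, -0.10, was the smallest of the 9 genes and about the size of the spot noise of bright probes.

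NLRC5, the transactivator that drives class I, B2M and TAP1 transcription, was the exception. Its 1 probe, the only reading of this gene and therefore printed here, gave 115, 115 and 129 with ETEC alone, TL2937 and TL2766. It was well above background on all 3 arrays but below the 75th percentile of each. The ETEC and TL2937+ETEC arrays differed by 0.00031, whose sign changed under 5 of 8 alternatives, and the TL2766+ETEC array was the highest, by 0.17 over either of the others. That difference is about as large as spot noise.
NLRC5, base 903: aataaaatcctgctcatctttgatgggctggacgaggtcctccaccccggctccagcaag

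Set directly against each other, the TL2937+ETEC array was below the TL2766+ETEC array for all 9 genes. The TL2937+ETEC array was the lower one for 64.6% of all genes, and for 81.3% of the genes at least 16-fold above the 75th percentile. The ETEC array is not used here, but both lactobacillus arrays are those of the comparisons with ETEC, so the direct comparison is not independent of them. The genes at least 1.2-fold lower were TAP1 (-0.32), SLA-2 (-0.30) and SLA-3 (-0.29). TAP2 (-0.26), SLA-5 (-0.25), B2M (-0.21), NLRC5 (-0.17), SLA-1 (-0.15) and CALR (-0.10) lay closer to 0. All 32 probes were below 0 in this comparison, where 55.7% of all probes were. The count of 3 depended on the scaling, at 5 with the array median and 1 with quantile or cyclic loess scaling.

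**Figure D3:**
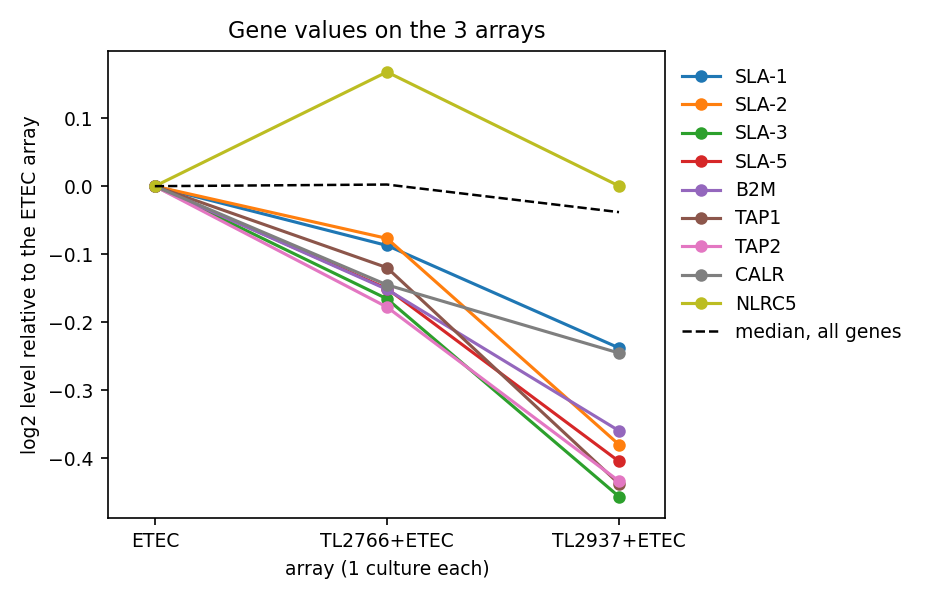
Log2 level of each of the 9 genes relative to the ETEC array (vertical axis) on the 3 arrays, 1 culture each; lines join the values of 1 gene and show no course in time, and the dashed line is the median of all genes. For 8 genes the TL2937+ETEC point is lowest, between -0.46 and -0.24, and NLRC5 stands apart.

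For TL2937+ETEC minus ETEC the median difference over all probes fell with brightness, from 0.013 below the 75th percentile. Over 320 probes at least 8 log2 units above the 75th percentile, the median difference was -0.10 for TL2937+ETEC minus ETEC and -0.049 for TL2766+ETEC minus ETEC, where it was -0.024 and 0.012 over 7959 probes between 0 and 4 units. The 3 class I and B2M probes in the brightest range had a median of -0.36 in the first comparison, and the 10 probes between 0 and 4 units had -0.39. Of the 320 brightest probes 10 (3.12%) were at least 1.2-fold lower in that comparison, B2M probes among them. Over the 914 genes at least 16-fold above the 75th percentile the median was -0.070, and over the 5 members among them (SLA-1, SLA-3, SLA-5, B2M and TAP2) it was -0.40. The median of the 9 genes was -0.38 with the main scaling, -0.34 with cyclic loess scaling and -0.33 with quantile scaling. SLA-1 went from -0.24 to -0.15 and -0.14. The part of brightness in these differences was not tested.

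**Figure D4:**
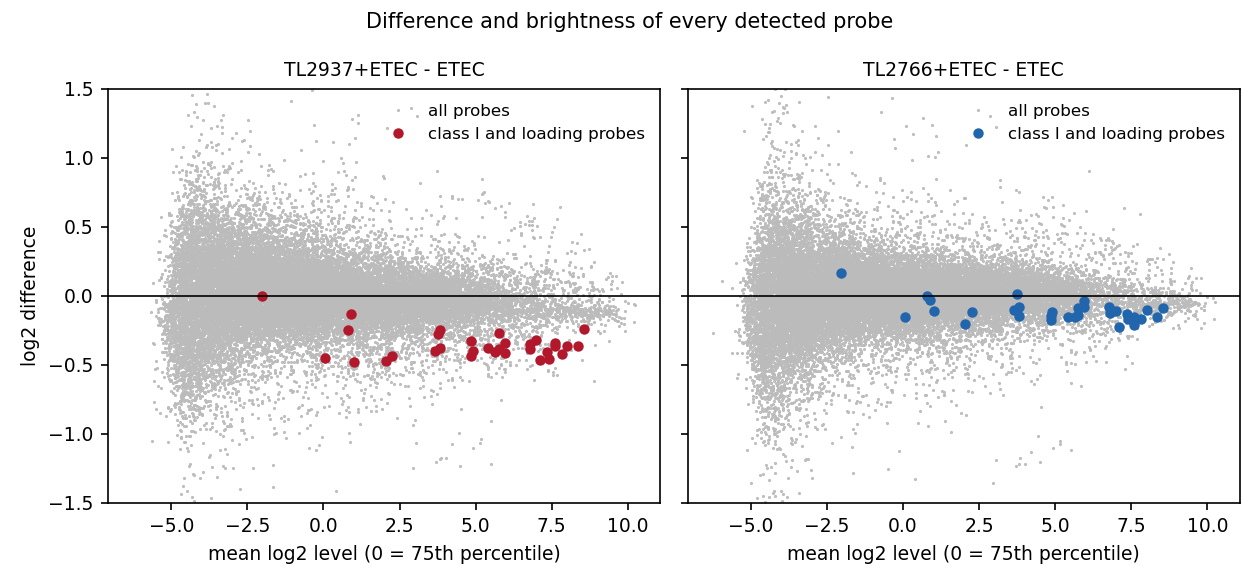
Log2 difference from the ETEC array (vertical axis, points beyond 1.5 either way not shown) against the mean log2 level over the 3 arrays (horizontal axis, 0 is the 75th percentile), for all probes well above background (grey) and for the 32 class I and loading probes (coloured). For TL2937+ETEC the coloured points have medians of -0.39 at 0 to 4 units and -0.36 above 8 units; the one below 0 units, NLRC5, lies at 0.00031.

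Other genes of the pathway were described from lists. Among 12 further class I and class I-like molecules, 6 were measured, and all 6 were below 0 for TL2937+ETEC minus ETEC (58.8% of all genes), with a median of -0.14. Of these 2 were at least 1.2-fold lower (12.6% of all genes) and 0 higher (7.68%). MIC2, a class I-like molecule of the MIC family, gave 452, 352 and 421 with ETEC alone, TL2937 and TL2766, or -0.36 for TL2937. CD1D, which presents lipids, was dim at 47.1, 38.4 and 41.5, with -0.30. Its other 2 probes were not well above background. SLA-6, a nonclassical class I molecule, gave 1287, 1140 and 1186, with -0.17. For TL2766+ETEC minus ETEC the list median was -0.094, and none passed 1.2-fold (9% of all genes were lower and 8.32% higher). CD1D, SLA-6 and MIC2 gave -0.18, -0.12 and -0.10.

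Peptide supply had the lowest list median with TL2937. Of 11 listed genes of the proteasome and of peptide trimming, 7 were measured. For TL2937+ETEC minus ETEC their median was -0.35, with 5 at least 1.2-fold lower (12.6% of all genes) and 0 higher (7.68%). PSMB8, an interferon-induced catalytic subunit of the immunoproteasome, gave 1611 with ETEC alone, 1081 with TL2937 and 1322 with TL2766, with ETEC highest. The difference from ETEC was -0.58 for TL2937 and -0.29 for TL2766. PSMB9, another such subunit, gave 31670, 22397 and 28965, with -0.50 and -0.13. PSME1, part of the activator that caps the proteasome, gave 15000, 11405 and 13531, with -0.40 and -0.15. LNPEP, an aminopeptidase that trims peptides, gave 555, 486 and 469, and was the only one of these 4 with TL2766+ETEC lowest, at -0.24. For TL2766+ETEC minus ETEC the list median was -0.13, with 1 gene lower (9% of all genes) and 0 higher (8.32%). In the direct comparison it was -0.29, with 4 lower (7.48% of all genes). TAP2, PSMB8, TAP1 and PSMB9 are neighbours in this order in the Sscrofa11.1 annotation. All 4 had TL2937+ETEC lowest and ETEC highest, as did 28.6% of all genes. The TAP2 value used here is that of the predicted transcript. These genes were chosen with earlier results of these data known, and why they shared the order of arrays was not tested.

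The chaperone list differed less. Of 10 genes 4 were measured, and 0 were past 1.2-fold in any comparison. For TL2937+ETEC minus ETEC, TL2766+ETEC minus ETEC and the direct comparison, 12.6%, 9% and 7.48% of all genes were lower. The shares higher were 7.68%, 8.32% and 4.41%. The list median was -0.095 for TL2937+ETEC minus ETEC and -0.043 for TL2766+ETEC minus ETEC. HSP90B1, an endoplasmic reticulum chaperone, gave 76589, 66247 and 71956, with -0.21 and -0.090. SEC62 of the translocon gave -0.12 and -0.085, HSPA5, the chaperone BiP, gave -0.065 and -0.00084, and SEC61A1 gave -0.046 and 0.079. The TL2766 value changed sign under 1 of 7 alternatives for SEC62 and HSPA5 and under 2 for SEC61A1.

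Regulators of class I genes lay mostly below 0 for TL2937 and on both sides of 0 for TL2766. Of the 14 regulators described, 8 were measured. For TL2937+ETEC minus ETEC 7 of the 8 were below 0 (58.8% of all genes). The median was -0.12, with 2 at least 1.2-fold lower (12.6% of all genes) and 0 higher (7.68%). STAT2, of the type I interferon complex, gave 6191 with ETEC alone, 4330 with TL2937 and 5336 with TL2766. The ETEC array was highest, and the lactobacillus arrays lay at -0.52 and -0.21. All 5 STAT2 probes were below 0 for TL2937+ETEC minus ETEC. NFYB, a subunit of the factor at the CCAAT box of MHC promoters, gave 1006, 836 and 933, with -0.27 for TL2937, which was -0.12 and so within 1.2-fold under another setting. CREB1, which binds cyclic AMP response elements, gave 582, 486 and 510, with -0.26 and -0.19. For TL2766+ETEC minus ETEC 4 of the 8 were below 0 (49.4% of all genes). The list median was -0.018, with 0 lower (9% of all genes) and 1 higher (8.32%). RFX5, of the complex that holds the X box of MHC promoters, gave 132, 129 and 172, or 0.38 for TL2766, a value that changed sign under 1 of 7 alternatives. In the direct comparison all 8 were below 0 (64.6% of all genes), and the median was -0.12, with 2 lower (7.48% of all genes).

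Interferons themselves were hardly measured. IFNG was not well above background on any array. IFNA1 was well above background on the TL2766+ETEC array only. With the dim arrays' own signals taken as their levels, it was 1.21-fold higher there than on ETEC and 1.29-fold higher than on TL2937+ETEC. Signals not well above background set no limit on these folds. IFNB1 was dim at 34.4, 35.2 and 43.3, with 0.035 for TL2937 and 0.33 for TL2766, the latter as low as 0.11 under another setting. Over the 6 measured genes of 9 listed, the median was -0.098 for TL2937+ETEC minus ETEC. In that comparison 0 were past 1.2-fold (12.6% of all genes were lower and 7.68% higher). For TL2766+ETEC minus ETEC the median was 0.021 and changed sign under 1 alternative. There 1 was higher (IFNB1, with 8.32% of all genes higher) and 0 lower (9%). Of the receptors, IL10RB, a shared subunit of interferon lambda and IL-10 family receptors, gave -0.21 and -0.19. IFNGR1 and IFNGR2, the chains of the type II interferon receptor, gave -0.13 and -0.13 for TL2937. For TL2766 IFNGR1 gave -0.26 and IFNGR2 0.099. The IFNGR1 value was as small as -0.045 under another setting, and 2 of its 4 probes were below 0 for TL2937.

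**Figure D5:**
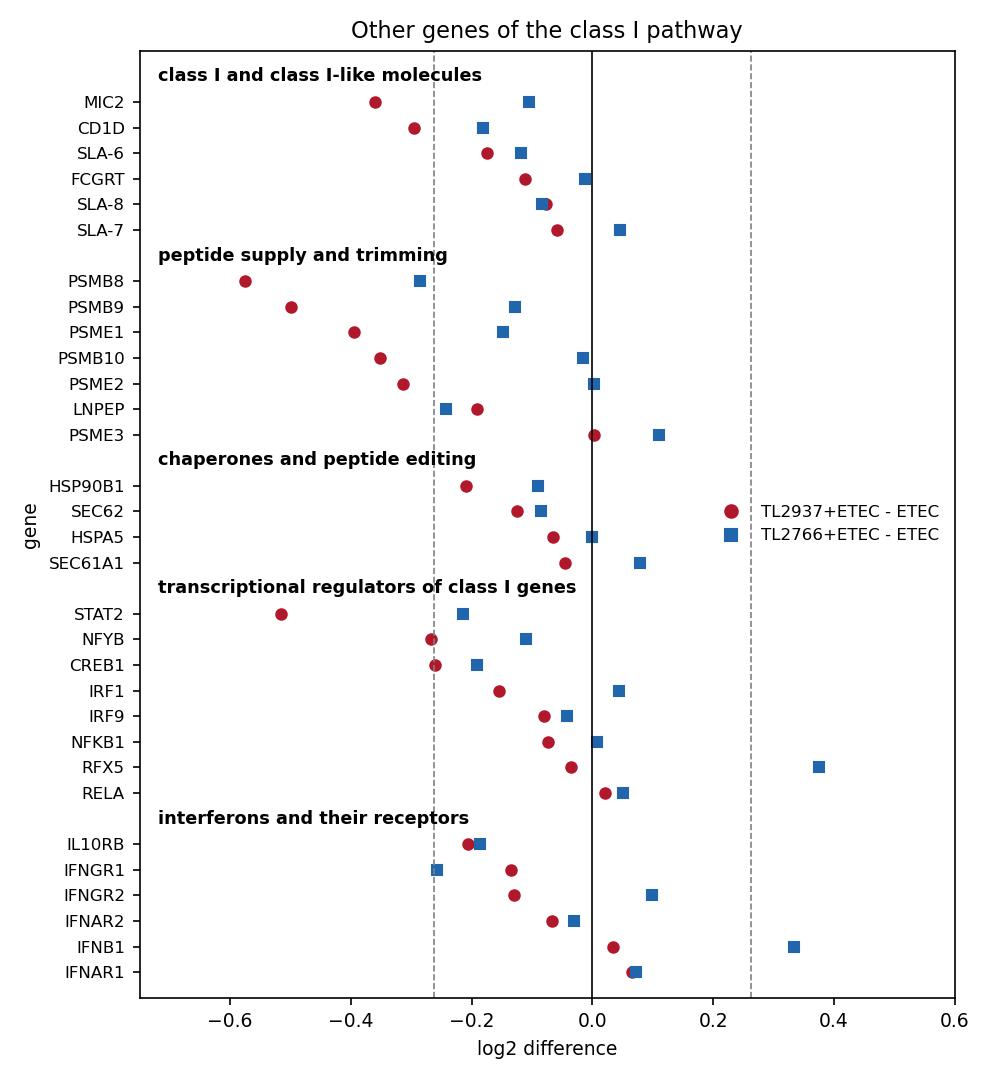
Log2 difference from the ETEC array (horizontal axis) of the other measured pathway genes by list; red circles, TL2937+ETEC, and blue squares, TL2766+ETEC, with dashed lines at 1.2-fold. PSMB8, STAT2 and PSMB9 have the lowest red values (-0.58 to -0.50), and RFX5 and IFNB1 have the highest blue values (0.38 and 0.33).

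The pattern of SLA-3 over the 3 arrays was set beside that of every other gene. Likeness was the Euclidean distance between the 3 log2 values, each gene centred on its own mean, over 5100 genes well above background on all arrays. With 3 points a gene, many genes lie close by. The nearest were TDRD7 (distance 0.0015), PARP12 (0.012) and LARP6 (0.012). Their differences for TL2937+ETEC minus ETEC were -0.45 each, near the -0.46 of SLA-3. Among the members TAP2 ranked 9 of 5099, TAP1 13, SLA-5 16, SLA-2 52, B2M 64, SLA-1 317 and CALR 355, while NLRC5 ranked 2828. Each gene was read by its brightest probe. For TAP2 that is a probe of the predicted transcript, not settled to read TAP2. The curated TAP2 probes gave -0.13 and -0.24 for TL2937+ETEC minus ETEC, further from SLA-3. The brightest SLA-1 probe gave -0.24 there, where its other probes gave -0.40 and -0.38.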

How the data were processed

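RNA of 3 PIE cultures, 1 per group, was measured on 1-colour Agilent porcine arrays, and groups were taken from the labels. Per the file headers, Agilent Feature Extraction 10.7.3.1 made the deposited processed intensity of each spot, with spatial background subtracted, and no scaling between arrays is recorded. The deposited mean and background intensities precede that subtraction. The authors' value table was that intensity after rounding (within 0.496%), linear and uncentred, with medians of 34.1, 37.7 and 35.7. It and normexp served as alternatives.

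The deposited intensity was converted to log2 and each array's 75th percentile subtracted; scaled intensities are the same values times the geometric mean of the 75th percentiles (483). Control and outlier spots (8, 9 and 4) were left out, and none was saturated. The probe with the highest mean stood for a gene, and a fold is computed from the authors' intensity so scaled. A probe or gene entered a comparison where the scanner software flagged it well above background on both arrays. Members and lists were chosen with earlier results of these data known. Named were all members, up to 3 genes per list and comparison with ETEC by size of difference, genes with a bound, and the 3 genes nearest to SLA-3. Symbols came from the array and a RefSeq table of assembly Sscrofa11.1 (14341 probes named, 29262 not). A few genes of the lists are not reported here and were left out of the counts and medians. Promoter and protein sequences were not used here. The steps were tested on simulated data. Alternatives covered background correction, scaling, probe choice, filters and fold. Work was done in R 4.3.3 with limma 3.58.1 and in Python 3.11.15 with pandas 2.3.3, numpy 2.4.6 and matplotlib 3.10.9.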

Additional observations from a re-analysis of the deposited data

How the results depend on the processing

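With 1 culture per group, no value separates treatment from culture or array, and spot noise is the only error measured. Over 492 combinations of a result and an alternative, 486 kept their value within spot noise or, for counts, within 1.5 times, 6 moved and 0 called values reversed. Some alternatives could hardly move a member gene, so 486 is not a count of independent checks. Lifting the filter on dim probes left each member value unchanged, and the authors' table is the same intensity rounded. Values counted as kept include sign changes, for NLRC5 with TL2937 (5 of 8 alternatives) and SLA-2 with TL2766 (1 of 9). The median of the 9 genes for TL2937+ETEC minus ETEC ran from -0.39 to -0.33, for TL2766+ETEC minus ETEC from -0.15 to -0.12 and for the direct comparison from -0.26 to -0.19. With a 1.5-fold limit, 0 genes were lower in TL2937+ETEC minus ETEC and 0 in the direct comparison, since the limit is stricter. The direct count of 3 was 5 with median scaling, 1 with quantile and 1 with cyclic loess scaling. TAP2 gave -0.13 with curated RefSeq probes only. The cause was not tested for any of these beyond the limit. Of all genes past 1.2-fold for TL2937+ETEC minus ETEC, 62.2% were lower (74.2% with normexp), and in the direct comparison 62.9% (77.9% with normexp, 52.5% with no filter on dim probes). Over all probes 3158 were lower and 3198 higher for TL2937+ETEC minus ETEC, and 1914 lower and 2354 higher in the direct comparison. No paired analysis was possible because each group has 1 sample. A slide block was not run, since all arrays lay on 1 slide.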

Other observations

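A few probes carry a class I description but no gene symbol, and were outside the comparisons above. One gave 291, 233 and 266 with ETEC alone, TL2937 and TL2766, or -0.32 and -0.13 against ETEC. Another gave 270, 321 and 271, or 0.25 and 0.0047. One more was dim at 31.1, 26.4 and 21.4, with -0.24 and -0.54. The others were not well above background on all 3 arrays.

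SLA-8, a nonclassical class I gene outside the chosen set, was read by 4 probes. All 4 lay below 0 for TL2937+ETEC minus ETEC, from -0.30 to -0.077. The overlapping probes at bases 310 and 312 of NM_001113703 gave -0.30 and -0.19. FCGRT, the heavy chain of the neonatal Fc receptor, which pairs with B2M, gave 43078, 39861 and 42734, or -0.11 and -0.012, and its 3 probes ran from -0.11 to 0.019 for TL2937+ETEC minus ETEC.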
